A study of Homo sapiens with 4 samples.

Results

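The aldehyde dehydrogenases (ALDH genes) studied here were 10 genes taken by symbol from the stranded read count table of a human pancreatic cancer line, ALDH1A1, ALDH1A2, ALDH1A3, ALDH1B1, ALDH2, ALDH3A1, ALDH3A2, ALDH3B1, ALDH7A1 and ALDH9A1. They made up 10 of the 60651 genes in the table, which holds 19 ALDH genes in all. All 10 were found, and 9 passed the filter on low counts that left 15636 genes for testing. ALDH1A2 did not pass and is given by its counts. The genes were chosen by their levels in all 12 libraries, which had been seen, so the levels and differences of the 10 are given as a description, without a test.

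Aldehyde dehydrogenases oxidise aldehydes to carboxylic acids with NAD+ or NADP+ as the acceptor of electrons. The ALDH1A enzymes turn retinaldehyde into retinoic acid, the ligand of the retinoic acid receptors, and other members clear aldehydes that arise from ethanol, lipid peroxidation, fatty alcohols and amino acids. ALDH activity is widely used to sort tumour cells with stem-like properties, pancreatic cancer cells among them, and ALDH1A1 and ALDH1A3 are the isoforms most often linked to that activity.

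The cells were KP4, an established pancreatic ductal adenocarcinoma line, as control cells and as cells labelled E5, which the title of the study calls resistant to FOLFIRINOX. A separate passage on the design mentions 5 treatment cycles, and the earlier drug exposure of the E5 vehicle cells could not be settled from it. The labels do not say whether E5 is a clone or a pool. Each kind of cell received DMSO (vehicle) or FOLFIRINOX for 96 h. FOLFIRINOX combined oxaliplatin, a platinum compound, at 5 µM with SN-38, the active metabolite of irinotecan, at 25 nM and a compound labelled 5-F at 10 µM. Each of the 4 GEO samples had 3 numbered columns, and the resulting 12 columns were treated as libraries, 3 per group. Nothing says that the columns were separate cultures, so every SD, SE and p-value measures only the spread between these columns, which may be technical.

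Gene reads per library ran from 7359034 to 21775030. CPM values are gene counts scaled to the gene reads of the library after TMM correction. Values in FPKM, scaled by the authors to gene length as well, were used where one gene is compared with another. Markers for the tissue were uneven. VIM, a mesenchymal intermediate filament gene, averaged 2000 to 2870 CPM over the groups and the ductal keratin KRT18 171 to 622 CPM, while KRT19, EPCAM and CDH1, other epithelial markers, stayed at or below 4.38 CPM. Acinar markers (PRSS1, CPA1, CELA3A) and INS had no reads.

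ALDH1A1 and ALDH1A3 showed the widest differences of the 9 genes and lay on opposite sides of the E5 comparison, so their upstream sequence is shown first. Sequences are from RefSeq on GRCh38.p14, in which 8 of the 10 genes matched an entry, with 11 windows of 250 bases before an annotated start. The window of ALDH1A1 at chr9:72953057-72953303, minus strand, holds 247 bases that lie outside annotated exons. Its single CCAAT box is in capitals, 74 to 70 bases before the start:
ALDH1A1 upstream window: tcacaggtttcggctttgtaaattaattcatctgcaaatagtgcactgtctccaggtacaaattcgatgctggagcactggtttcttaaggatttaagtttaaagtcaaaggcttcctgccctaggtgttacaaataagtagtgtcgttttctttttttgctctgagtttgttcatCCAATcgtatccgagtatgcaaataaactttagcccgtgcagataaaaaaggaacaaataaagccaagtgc

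The retinaldehyde dehydrogenases ALDH1A1, ALDH1A2 and ALDH1A3 each had a window with 1 CCAAT box on the coding strand within 74 bases of the start, as did ALDH7A1 (63 to 59 bases) and ALDH3A2 (30 to 26 bases). The windows of ALDH1A2 and ALDH1A3 lie wholly within annotated exons, so only the sites are shown. The sites of the ALDH1A genes are printed with 10 bases on either side to show that the bases around the box differ between the genes:
ALDH1A1 site, chr9:72953113-72953137, minus strand: gtttgttcatCCAATcgtatccgag
ALDH1A2 site, chr15:58065759-58065783, minus strand: gccctcacgtCCAATaagaagagcc
ALDH1A3 site, chr15:100879750-100879774, plus strand: ggtcccgcagCCAATtaggcggccc

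In ALDH1A2 the box lay 62 to 58 bases and in ALDH1A3 71 to 67 bases before the start. Both strands of 35116 windows of 250 bases were searched for 5 motifs. The CCAAT box (CCAAT) was in 32.0% of them, the GC box (GGGCGG) in 42.6%, the core of the element bound by the aryl hydrocarbon receptor (GCGTG) in 32.2%, the AGGTCA element bound by retinoid receptors in 12.1% and the TATA box (TATAAA) in 10.7%. The ALDH1A3 window held 6 GC boxes and 2 GCGTG cores, with 1 base shared between neighbouring matches. The ALDH1A1 window held neither of these, and no window of a matched member held AGGTCA or TATAAA. A match is a description of letters and not a bound site.

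In control cells given vehicle, ALDH1A1, the cytosolic retinaldehyde dehydrogenase on chromosome 9 (72900671 to 73080442, GRCh38), was measured at 60.9, 63.2 and 62.5 CPM. Under FOLFIRINOX the control libraries held 42.6, 37.2 and 41.9 CPM. E5 libraries held 3.21, 3.65 and 3.92 CPM under vehicle and 1.29, 1.42 and 1.61 CPM under FOLFIRINOX. The 4 groups did not overlap, and every E5 library lay below every control library.

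E5 cells thus had 17.1-fold less ALDH1A1 than control cells under vehicle, a log2 fold change of -4.09 ± 0.10 (SE, n = 3 per group). Under FOLFIRINOX the gap was 28.0-fold, or -4.81 ± 0.11. In bulk RNA, fewer cells that express a gene and less RNA per cell cannot be told apart. The drug accompanied a lower level in both kinds of cell, by -0.63 ± 0.072 in control and -1.34 ± 0.17 in E5 cells, and the response of E5 minus that of control cells was -0.71 ± 0.18. On the log2(FPKM + 1) scale, which compresses low values, this difference was -0.23. The comparisons share groups of libraries with each other, so they are set side by side and not counted as separate evidence.

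PTPRC (CD45), a marker of blood cells, moved with ALDH1A1. It averaged 51.9 ± 3.10 CPM (SD, n = 3) in control vehicle and 11.4 ± 1.91 CPM in control FOLFIRINOX libraries, against 0.0656 and 0.0345 CPM in the E5 groups. Of 5 immune markers, it was the only one tested, and CD3E had no reads in any library. CD68, a macrophage marker of the list, had at most 0.496 CPM, but the authors' FPKM gave it means of 7.52 and 64.7 in control vehicle and FOLFIRINOX libraries and 12.9 and 23.1 in E5 libraries, an order unlike that of PTPRC. The summed level of the 5 ran from 48.9 to 55.0 CPM in control libraries under vehicle and 10.3 to 14.0 CPM under FOLFIRINOX, and from 0.268 to 0.765 CPM and 0.569 to 0.773 CPM in E5 libraries. Its part in the ALDH1A1 result was not tested.

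**Figure D1:**
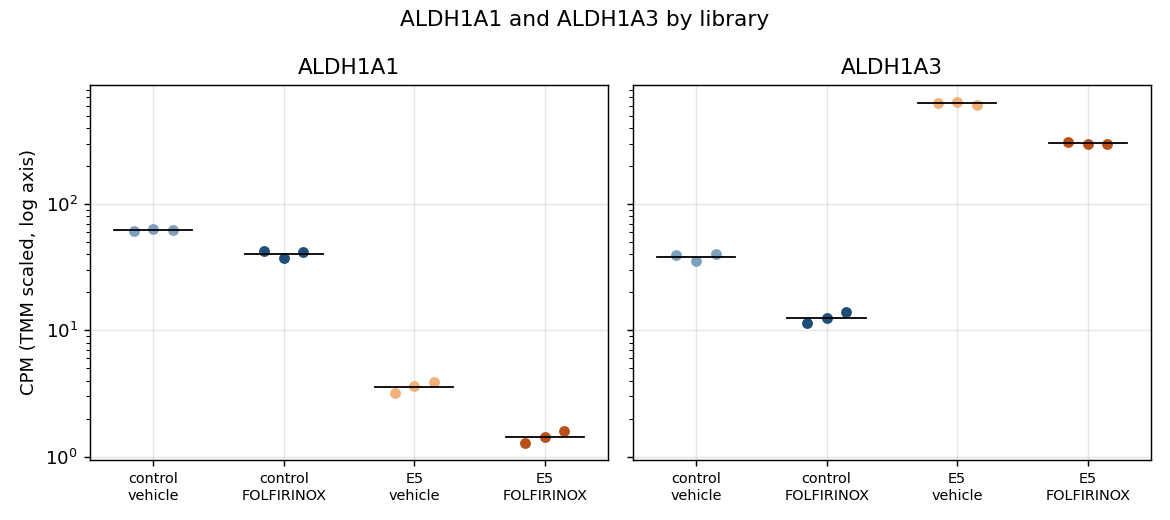
TMM-scaled CPM (log axis) of ALDH1A1, left, and ALDH1A3, right, in each of the 12 libraries by group; points are libraries and lines the mean of 3. ALDH1A1 is at 62.2 CPM in control vehicle and 1.44 CPM in E5 FOLFIRINOX libraries, while ALDH1A3 stands at 630 CPM in E5 vehicle and 12.6 CPM in control FOLFIRINOX libraries.

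ALDH1A3, which carries out the same reaction as ALDH1A1 and lies on chromosome 15 (100877714 to 100916626), had the reverse order between the lines. Control libraries held 39.4, 35.5 and 40.2 CPM under vehicle and 11.4, 12.6 and 13.9 CPM under FOLFIRINOX. E5 libraries held 633, 644 and 613 CPM under vehicle and 308, 299 and 301 CPM under FOLFIRINOX. All E5 libraries were above all control libraries, and within each kind of cell the treated libraries were the lower ones.

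The level of ALDH1A3 was 16.5-fold higher in E5 than in control cells under vehicle (log2 4.04 ± 0.07) and 23.6-fold higher under FOLFIRINOX (4.56 ± 0.076). The difference between treated and vehicle libraries was -1.58 ± 0.077 in control and -1.06 ± 0.061 in E5 cells on the log2 scale. The responses differed by 0.52 ± 0.097, and by 0.00 on the authors' rlog values, for which the cause was not tested. The ductal markers KRT7, KRT8 and KRT18 were also higher in E5 cells. Of 7 ductal and epithelial markers, 6 were higher and 1 lower in E5 vehicle libraries without overlap, against 27% and 27.8% of all genes. Under FOLFIRINOX 5 were higher and 1 lower, against 28.4% and 28.7%. The summed level of the 7, most of it KRT8 and KRT18, was 197 to 231 CPM (vehicle) and 418 to 460 CPM (FOLFIRINOX) in control libraries. In E5 libraries it was 745 to 832 CPM and 770 to 874 CPM. The 3 endothelial markers summed to 0.667 to 1.48, 0.900 to 1.34, 6.70 to 7.16 and 1.99 to 2.79 CPM in the same order, with CDH5 at 0.153, 0.0496, 5.55 and 1.17 CPM. The part of either list in the ALDH1A3 result was not tested.

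ALDH1A2, the third retinaldehyde dehydrogenase, was near the limit of detection. Control libraries had counts of 0, 0 and 0 under vehicle and 1, 4 and 1 under FOLFIRINOX, and E5 libraries 0, 1 and 0 under vehicle and 6, 2 and 3 under FOLFIRINOX. In control cells the 6 reads under FOLFIRINOX stood against 0, or 2.07-fold higher with vehicle set at a floor of 3 counts. The floor is the upper 95% limit for a count of 0. The 6 reads were taken as exact, so 2.07 is not a lower limit. In E5 cells 11 reads stood against 1, a ratio of 7.90 that rests on 1 vehicle read. Neither difference was tested. Counting intervals given for other genes cover counting error only.

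Summed over the 3 retinaldehyde dehydrogenases, the level in control libraries was 36.9 ± 0.289 FPKM under vehicle and 24.2 ± 2.57 FPKM under FOLFIRINOX, and in E5 libraries 176 ± 3.06 FPKM and 89.1 ± 1.53 FPKM (SD, n = 3 each). The make-up of that sum changed over between the lines. ALDH1A1 supplied 71.6 ± 1.74% of it in control vehicle and 83.1 ± 1.86% in control FOLFIRINOX libraries, but 0.879 ± 0.101% and 0.742 ± 0.125% in the E5 groups. ALDH1A3 supplied 28.4% and 16.3% in control cells and 99.1% and 99.0% in E5 cells.

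The mitochondrial enzymes ALDH1B1 and ALDH2 differed from each other in level and in how far they varied between the groups. ALDH1B1, a mitochondrial enzyme that acts on short aldehydes and retinaldehyde, held 66.7, 65.7 and 70.3 CPM in control vehicle and 57.1, 57.5 and 60.5 CPM in control FOLFIRINOX libraries. In E5 cells it held 72.3, 70.2 and 72.4 CPM under vehicle and 75.1, 73.0 and 69.3 CPM under FOLFIRINOX. The treated control libraries were the lowest 3 of the 12, with a log2 fold change of -0.21 against vehicle (-0.07 with total-count scaling), and the E5 groups overlapped. With a range of 0.31 over the 4 group means on the log2 CPM scale, ALDH1B1 varied least of the 9 genes.

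ALDH2, the main mitochondrial enzyme of acetaldehyde oxidation, had few reads. Control libraries had 6, 22 and 22 under vehicle and 3, 8 and 10 under FOLFIRINOX, and E5 libraries had 5, 8 and 2 under vehicle and 4, 1 and 6 under FOLFIRINOX. In CPM the control groups were 0.992 ± 0.300 and 0.447 ± 0.0961, without overlap, and the E5 groups 0.448 ± 0.254 and 0.221 ± 0.158, with overlap. ALDH2 was lower under the drug by -1.18 ± 0.39 in control cells. The difference between E5 and control cells was -1.28 ± 0.42 under vehicle, where 1 E5 library reached the lowest control library. Under FOLFIRINOX it was -1.0 ± 0.54 and turned to 0.04 on log2(FPKM + 1), so no direction is given.

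Of the ALDH3 members, ALDH3A2, the fatty aldehyde dehydrogenase whose loss causes Sjögren-Larsson syndrome, had the highest mean FPKM of the members in every group. It held 333, 334 and 334 CPM in control vehicle and 112, 115 and 118 CPM in control FOLFIRINOX libraries. In E5 cells it held 557, 547 and 556 CPM under vehicle and 451, 425 and 421 CPM under FOLFIRINOX. No 2 groups overlapped, and the treated control libraries stood far below the rest.

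Against vehicle, ALDH3A2 was lower by -1.53 ± 0.051 on the log2 scale in treated control cells and by -0.36 ± 0.049 in treated E5 cells. The difference between these responses was 1.17 ± 0.07, the widest among the 9 genes in the fit on counts, and 0.96 on log2(FPKM + 1). E5 cells had more ALDH3A2 than control cells under vehicle (0.73 ± 0.049) and under FOLFIRINOX (1.91 ± 0.052). Leaving out any 1 library kept the difference of responses between 1.15 and 1.21.

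ALDH3A1, which oxidises aromatic and medium-chain aldehydes and lies 52.2 kb from ALDH3A2 on chromosome 17, had counts of 4, 22 and 15 in control vehicle and 1, 4 and 5 in control FOLFIRINOX libraries. E5 libraries had 13, 28 and 15 under vehicle and 12, 11 and 4 under FOLFIRINOX. At 1.59 ± 0.274 CPM the E5 vehicle libraries lay above all others, and at 0.202 ± 0.0751 CPM the control FOLFIRINOX libraries were lowest, overlapping the E5 FOLFIRINOX libraries at 0.554 ± 0.269 CPM. The drug-treated libraries were lower by -1.94 ± 0.47 in control and -1.51 ± 0.35 in E5 cells. The difference of the responses was 0.42 ± 0.59 and changed sign on log2(FPKM + 1), to -0.50.

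ALDH3B1, which acts on lipid-derived aldehydes, was the only one of the 9 tested members without a lower mean under the drug in either kind of cell. Control libraries held 0.556, 1.05 and 0.858 CPM under vehicle and 1.03, 0.992 and 1.51 CPM under FOLFIRINOX. E5 libraries held 4.42, 4.02 and 2.21 CPM and 4.03, 4.56 and 2.90 CPM. The E5 libraries were all above the control libraries, by 1.98 ± 0.31 under vehicle and 1.67 ± 0.27 under FOLFIRINOX on the log2 scale, and the treatments overlapped in both kinds of cell.

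ALDH7A1, an enzyme of lysine breakdown, held 112, 117 and 116 CPM in control vehicle and 71.0, 76.7 and 82.1 CPM in control FOLFIRINOX libraries. In E5 cells it held 110, 107 and 110 CPM under vehicle and 117, 101 and 105 CPM under FOLFIRINOX. Treated control libraries stood apart below the other 9, at a log2 fold change of -0.58 ± 0.07 against vehicle, whereas the E5 treatments overlapped at -0.02 ± 0.069. The responses differed by 0.57 ± 0.098.

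ALDH9A1, which works in carnitine synthesis, had drug responses in the kinds of cell that differed by less than their error. Control libraries held 99.1, 98.5 and 103 CPM under vehicle and 63.3, 64.2 and 63.8 CPM under FOLFIRINOX. E5 libraries held 83.8, 89.9 and 82.8 CPM under vehicle and 55.6, 54.0 and 52.3 CPM under FOLFIRINOX. None of the 4 groups overlapped. The log2 fold change under the drug was -0.65 ± 0.06 in control and -0.67 ± 0.061 in E5 cells, and the difference was -0.01 ± 0.085. E5 cells were lower by -0.23 ± 0.06 under vehicle and -0.24 ± 0.061 under FOLFIRINOX.

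**Figure D2:**
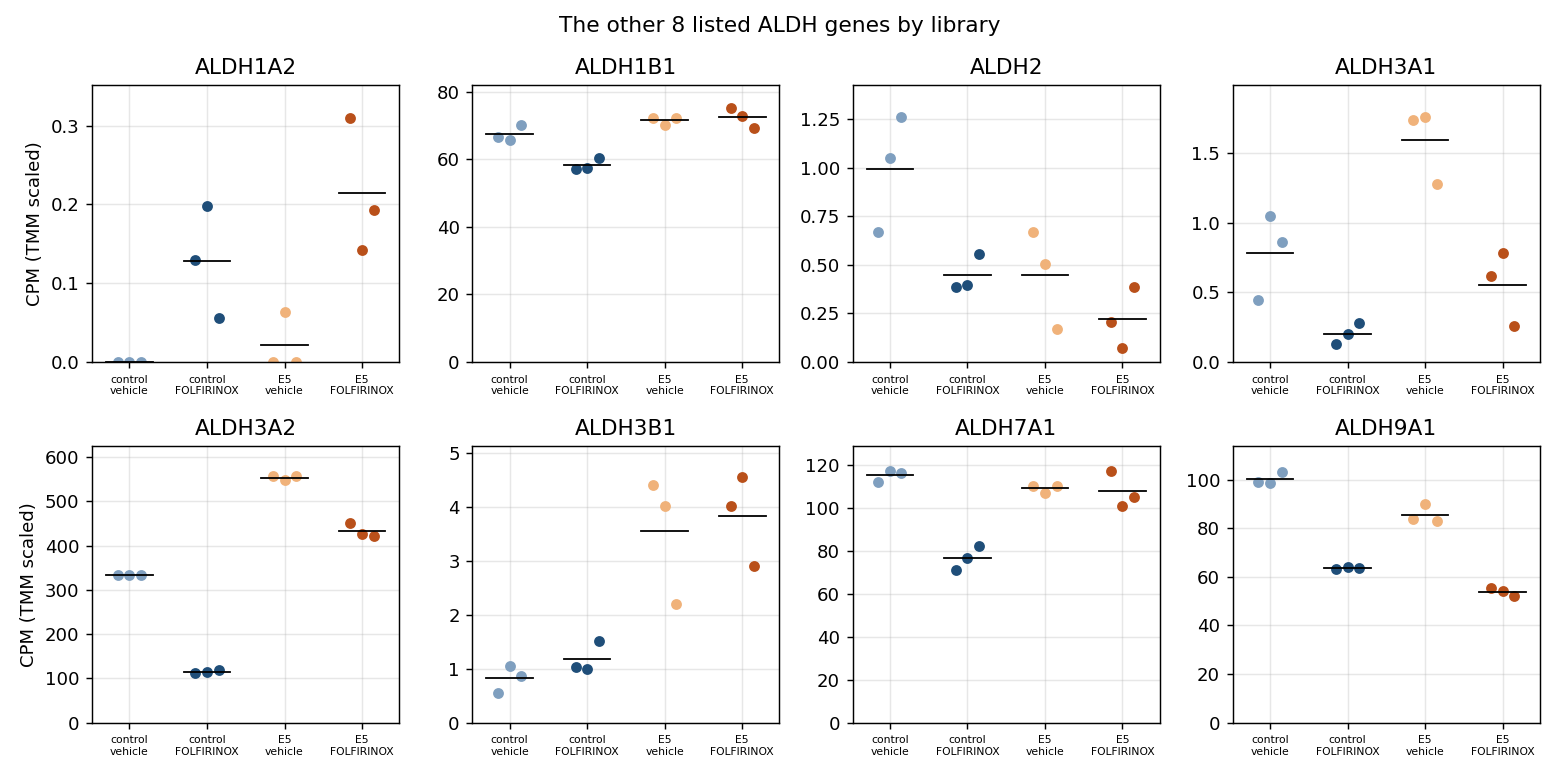
TMM-scaled CPM of the other 8 listed genes in each library (linear axes from 0, each with its own scale); points are libraries and lines the mean of 3. Control FOLFIRINOX libraries are the lowest group for ALDH1B1, ALDH3A2 and ALDH7A1, and the E5 groups are the highest for ALDH3A2 and ALDH3B1.

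Counted over the 9 genes, FOLFIRINOX libraries of control cells were lower than vehicle libraries without overlap for 8, and the exception was ALDH3B1. The background was large: 67% of all genes tested did not overlap in that sense, 33.5% lower and 33.5% higher. In E5 cells 5 of 9 were lower (ALDH1A1, ALDH1A3, ALDH3A1, ALDH3A2 and ALDH9A1) and none higher, against 59.7% of all genes without overlap, 30.7% lower and 29.1% higher. The median log2 fold change of the 9 was -0.65 in control and -0.67 in E5 cells, against 0 over all genes in both.

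Between the lines the family divided. Under vehicle 4 of 9 were higher in E5 cells (ALDH1A3, ALDH3A1, ALDH3A2, ALDH3B1) and 3 lower (ALDH1A1, ALDH7A1, ALDH9A1), with a background of 54.8%, 27% higher and 27.8% lower. Under FOLFIRINOX 5 were higher (ALDH1A3, ALDH1B1, ALDH3A2, ALDH3B1, ALDH7A1) and 2 lower (ALDH1A1, ALDH9A1), with a background of 57.2%, 28.4% higher and 28.7% lower. The medians were 0.08 and 0.49, against -0.01 over all genes. ALDH7A1 was on the lower side of control cells under vehicle, by -0.08 ± 0.069, and on the higher side under FOLFIRINOX, by 0.49 ± 0.07. Since the list was drawn up on these libraries, nothing is read from these counts.

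**Figure D3:**
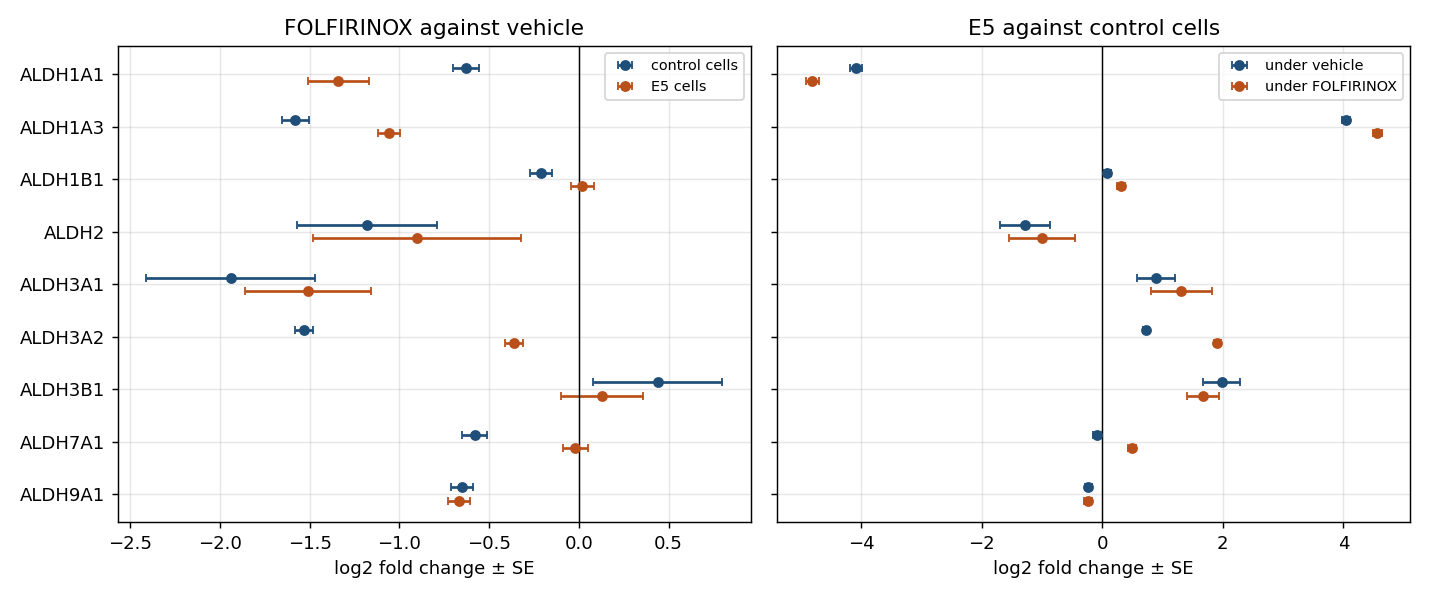
Log2 fold change ± SE of the 9 tested genes, FOLFIRINOX against vehicle in each kind of cell (left) and E5 against control cells under each treatment (right); the panels have different scales. ALDH3A2 and ALDH7A1 sit apart between the kinds of cell on the left (-1.53 and -0.36, -0.58 and -0.02), and ALDH1A1 and ALDH1A3 lie at the 2 ends on the right.

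Per length, the order of the family changed between the lines. In control vehicle libraries ALDH3A2 (123 ± 3.46 FPKM) was followed by ALDH7A1 (70.0 ± 2.17), ALDH9A1 (41.9 ± 2.26), ALDH1A1 (26.4 ± 0.411), ALDH1B1 (19.1 ± 0.538) and ALDH1A3 (10.5 ± 0.713), with no overlap between neighbours. ALDH2, ALDH3A1 and ALDH3B1 followed below 1.26 FPKM and overlapped each other. In control FOLFIRINOX libraries ALDH3A2 (52.1 ± 1.49) and ALDH7A1 (49.6 ± 2.20) overlapped, as did ALDH1A1 (20.1 ± 2.23) and ALDH1B1 (18.3 ± 0.371).

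In E5 vehicle libraries ALDH1A3 (175 ± 3.33 FPKM) came next to ALDH3A2 (195 ± 2.86), still without overlap, and ALDH1A1 (1.55 ± 0.148) lay among the low members, overlapping ALDH3A1 (1.36 ± 0.921). In E5 FOLFIRINOX libraries ALDH3A2 (162 ± 2.19) led ALDH1A3 (88.2 ± 1.40) and ALDH7A1 (65.4 ± 3.15). Summed over all 19 ALDH genes, the level in control libraries was 366 ± 6.35 FPKM under vehicle and 223 ± 3.79 FPKM under FOLFIRINOX, and in E5 libraries 564 ± 5.03 FPKM and 417 ± 9.64 FPKM. ALDH3A2 and ALDH1A3 supplied 33.7% and 2.87% of it in control vehicle and 34.5% and 31.0% in E5 vehicle libraries.

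**Figure D4:**
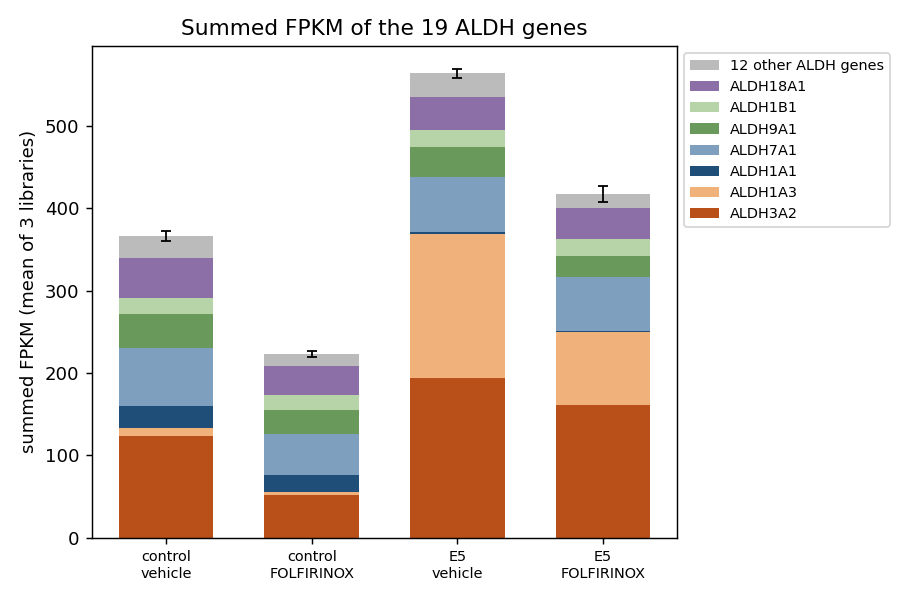
Summed FPKM of the 19 ALDH genes in each group, as stacked means of 3 libraries; error bars are the SD of the sum. The ALDH1A3 segment is 10.5 FPKM in control vehicle and 175 FPKM in E5 vehicle libraries, and the whole bars are 366 and 564 FPKM.

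The 9 ALDH genes outside the list were tested, and 7 of them passed the filter. ALDH1L1 and ALDH3B2 did not, with 20 and 5 reads over all libraries. In control cells 4 of 7 fell under FOLFIRINOX and none rose (edgeR quasi-likelihood test, Benjamini-Hochberg adjusted p under 0.05), where 65.3% of all genes passed, 32.7% falling and 32.6% rising. They were ALDH5A1, which oxidises succinic semialdehyde (log2 -1.97 ± 0.10, adjusted p = 6.5e-11), ALDH4A1 of proline breakdown (-1.53 ± 0.11, 3.6e-09), ALDH16A1 (-1.54 ± 0.13, 1.9e-08) and ALDH18A1 of proline synthesis (-0.59 ± 0.065, 5.2e-07). ALDH1L2 (-0.62, adjusted p = 0.11), ALDH6A1 (-0.24, 0.055) and ALDH8A1 (0.59, 0.27) did not pass. ALDH6A1 passed without control vehicle library 3 (-0.34) or control FOLFIRINOX library 2 (-0.32).

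In E5 cells 6 of 7 fell and none rose, against 52.3% of all genes that passed, 27.3% falling and 25% rising. ALDH4A1 (-1.32 ± 0.11, adjusted p = 4.7e-08), ALDH5A1 (-1.16 ± 0.096, 4.6e-08), ALDH16A1 (-1.08 ± 0.12, 1.4e-06), ALDH6A1 of valine breakdown (-0.33 ± 0.096, 0.0076), ALDH1L2, a mitochondrial enzyme of folate metabolism (-1.73 ± 0.42, 0.0025), and ALDH18A1 (-0.18 ± 0.065, 0.03) passed in edgeR. ALDH8A1 did not (0.40, 0.49). The ALDH18A1 call ended with any one of E5 vehicle libraries 1 (-0.18) and 3 (-0.16) or E5 FOLFIRINOX libraries 2 (-0.18) and 3 (-0.12) left out. It also ended with DESeq2 (-0.16), no filter (-0.17), only the groups compared (-0.16), total-count scaling (-0.11) and on both FPKM scales (-0.12). The call of ALDH1L2, with 48 and 20 reads in the vehicle and treated groups, ended on log2(FPKM + 1) (-0.02).

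Between the lines 2 of these genes differed under vehicle and 4 under FOLFIRINOX. Under vehicle ALDH6A1 was higher in E5 cells (0.72 ± 0.099, adjusted p = 1.3e-05) and ALDH18A1 lower (-0.28 ± 0.065, 0.0021), where 44.3% of all genes passed, 22.1% higher and 22.2% lower. Under FOLFIRINOX ALDH5A1 (0.69 ± 0.11, 4.4e-05), ALDH6A1 (0.62 ± 0.10, 5.3e-05) and ALDH16A1 (0.59 ± 0.14, 0.0015) were higher in E5 cells and ALDH1L2 lower (-1.30 ± 0.43, 0.016), where 54.3% of all genes passed, 26.7% higher and 27.6% lower. On log2(FPKM + 1) the calls of ALDH5A1 (0.19) and ALDH16A1 (0.16) ended and ALDH1L2 turned to 0.10. The ALDH1L2 call also ended without control FOLFIRINOX library 3 (-1.15) or E5 FOLFIRINOX library 3 (-0.97), and ALDH18A1 passed without control FOLFIRINOX library 2 (0.19) or E5 FOLFIRINOX library 3 (0.21).

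The responses of the lines to the drug differed for 2 of the 7, ALDH5A1 (0.81 ± 0.14, adjusted p = 0.00057 for the difference in edgeR) and ALDH18A1 (0.42 ± 0.092, 0.0036), and 25.7% of all genes differed in either direction. Both fell less in E5 cells. ALDH16A1 joined them without control vehicle library 2 (0.56), control FOLFIRINOX library 2 (0.55) or E5 vehicle library 1 (0.53). ALDH5A1 did not pass on log2(FPKM + 1), at 0.26.

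Of 18 genes that carry, convert or receive retinoids, the substrates and products of the ALDH1A enzymes, 14 were tested. Under vehicle 8 were higher in E5 cells, 1 lower and 5 did not pass, where 22.1% of all genes were higher. Under FOLFIRINOX 10 were higher, 1 lower and 3 did not pass, where 26.7% of all genes were higher. Medians were 0.59 and 1.01, against -0.01 over all genes. RARB, the retinoic acid receptor gene that is itself switched on by retinoic acid, had 310 reads in E5 vehicle against 2 in control vehicle libraries, a ratio of 209 (exact 95% counting interval 57.4 to 1740; edgeR adjusted p = 1.3e-11), and was 4.65 ± 0.24 higher on the log2 scale under FOLFIRINOX (6e-11). STRA6, a membrane receptor for retinol uptake, was higher under both treatments (2.48 ± 0.22, 8.7e-08, and 2.27 ± 0.25, 9.6e-07). DHRS9, a retinol dehydrogenase, was higher under vehicle (3.65 ± 0.30, 2e-08, edgeR) and by 1.82 under FOLFIRINOX. DHRS3, which reduces retinaldehyde back to retinol, was higher under FOLFIRINOX (2.85 ± 0.074, 1.1e-14, edgeR) and by 2.4 under vehicle. CRABP2 of the same list went the other way, at 33 CPM in control and 10.8 CPM in E5 vehicle libraries. Under FOLFIRINOX it held 29.1 and 10.6 CPM. CYP26A1 was not tested, with 1 to 4 reads per group.

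Under the drug 5 of the 14 retinoid genes rose, 5 fell and 4 did not pass in control cells, where 32.6% of all genes rose and 32.7% fell. In E5 cells 3 rose, 2 fell and 9 did not pass, where 25% of all genes rose and 27.3% fell. DHRS9 rose in both (3.69 ± 0.28, adjusted p = 6.8e-09, and 1.86 ± 0.14, 2.4e-08, edgeR), the reverse of ALDH1A1 and ALDH1A3. RARB had 15 reads against 2 in control cells (ratio 7.75, 1.80 to 69.9, adjusted p = 0.0037) and RARG fell (-0.79 ± 0.084, 3.5e-07). In E5 cells STRA6 fell (-0.70 ± 0.18, 0.0032) and RDH14, a retinol dehydrogenase, rose (0.55 ± 0.085, 4.2e-05, edgeR). Their values in control cells were -0.49 and 0.72. The response was lower in E5 than in control cells for RARB (-2.79 ± 0.75, 0.012), DHRS9 (-1.83 ± 0.36, 0.0016) and RDH10 (-0.65 ± 0.13, 0.002, edgeR) and higher for 5 others. In all 8 of 14 differed, or 5 of 14 without control vehicle library 2, where 25.7% of all genes differed. The RARB difference ended without control vehicle library 2 (-2.06) or control FOLFIRINOX library 3 (-2.41). It also ended on rlog values (-0.28), log2(FPKM + 0.1) (-0.65) and log2(FPKM + 1) (-0.08). The call of RARB in control cells under the drug ended on log2(FPKM + 1) (0.10). The DHRS9 difference ended on rlog values (-0.01) and turned to 0.13 on log2(FPKM + 1).

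Of 16 genes whose enzymes form aldehydes or fatty alcohols, 8 were tested. In control cells 2 rose, 3 fell and 3 did not pass (3 in all passed without control FOLFIRINOX library 2), and in E5 cells 1 rose, 2 fell and 5 did not pass. Of all genes 32.6% rose and 32.7% fell in control cells, and 25% rose and 27.3% fell in E5 cells. SGPL1, the lyase that releases a fatty aldehyde oxidised by ALDH3A2, fell in control (-0.99 ± 0.081, adjusted p = 1.7e-08) and E5 cells (-0.54 ± 0.082, 3.7e-05, edgeR). Its response differed between the lines by 0.45 ± 0.12 (0.0084, edgeR), the 1 difference that passed of 8 (25.7% of all genes passed). That count was 2 without any one of control FOLFIRINOX library 3, E5 vehicle library 2 or E5 FOLFIRINOX libraries 1 and 2, and 0 on both FPKM scales, where SGPL1 (0.34 and 0.36) no longer passed. SMOX, spermine oxidase, rose in both (0.72 ± 0.12, 6.3e-05, and 0.74 ± 0.13, 0.00017). MAOA, a monoamine oxidase, rose in control cells (1.20 ± 0.35, 0.0065), a call that ended without control FOLFIRINOX library 2 (0.92), and FAR2, a fatty acyl reductase, fell in E5 cells (-0.37 ± 0.11, 0.0092), which ended without E5 vehicle library 2 (-0.29) or E5 FOLFIRINOX library 1 (-0.29).

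Between the lines 2 of the 8 were higher in E5 cells and 4 lower under vehicle, and 2 higher and 3 lower under FOLFIRINOX, where 3 in all passed without control FOLFIRINOX library 2 or E5 FOLFIRINOX library 3. Of all genes 22.1% were higher and 22.2% lower under vehicle, and 26.7% higher and 27.6% lower under FOLFIRINOX. FAR2 was higher by 2.75 ± 0.14 (adjusted p = 3.3e-11) and 2.39 ± 0.14 (2.3e-10), and MAOA by 2.56 ± 0.30 (2.1e-06) and 1.69 ± 0.23 (9.5e-06, edgeR). SMOX was lower under vehicle (-0.56 ± 0.13, 0.0025, edgeR) and stood at -0.54 under FOLFIRINOX. AOC2, an amine oxidase, was lower under FOLFIRINOX (-0.55 ± 0.20, 0.029), a call that ended without any one of control FOLFIRINOX libraries 2 (-0.32) and 3 (-0.58) or E5 FOLFIRINOX libraries 2 (-0.40) and 3 (-0.52).

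Of 17 genes whose enzymes remove aldehydes by other reactions, 13 were tested. In control cells 4 rose, 7 fell and 2 did not pass, where 65.3% of all genes passed, and in E5 cells 5 rose, 6 fell and 2 did not pass, where 52.3% passed. AOX1, aldehyde oxidase, rose from 0.234 ± 0.149 to 8.39 ± 0.177 CPM in control cells (5.01 ± 0.29, adjusted p = 2.1e-10) and from 0.756 ± 0.464 to 6.74 ± 0.424 CPM in E5 cells (3.03 ± 0.25, 5.2e-08, edgeR). GSTA4, a glutathione transferase for lipid aldehydes, fell in control cells (-1.42 ± 0.13, 8.2e-08, edgeR), with -0.81 in E5 cells. In E5 cells PTGR2 rose (1.14 ± 0.13, 1.3e-06) and the aldehyde reductase AKR7A2 fell (-0.98 ± 0.11, 1.2e-06, edgeR). Their values in control cells were 1.2 and -1.22. AKR1C3 passed in control cells (1.28 ± 0.54, 0.048), but of the 12 libraries only control vehicle 1 or 3 could be left out without ending the call, with values of 0.69 without control vehicle library 2 and 1.16 to 1.37 otherwise.

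Under vehicle 7 of these 13 were higher in E5 cells and 3 lower, where 22.1% of all genes were higher and 22.2% lower. Under FOLFIRINOX 6 were higher and 2 lower, where 26.7% of all genes were higher and 27.6% lower. AKR1B10, an aldo-keto reductase that also reduces retinaldehyde, was higher by 3.42 ± 0.26 (adjusted p = 7.1e-09) and 3.85 ± 0.23 (3.6e-10, edgeR). AKR1C3 was higher by 3.22 ± 0.42 (7e-06) and 1.72 ± 0.34 (0.00037, edgeR). GSTA4 was higher by 1.37 ± 0.13 under FOLFIRINOX (2e-07, edgeR) and stood at 0.76 under vehicle. AKR1B and AKR1C genes include copies of similar sequence. Reads that mapped to more than 1 place were not assigned to a gene, so the values of these genes are uncertain. AOX1 was higher in E5 vehicle cells (1.67 ± 0.49, 0.01), a call that ended without control vehicle library 2 (1.42) or E5 vehicle library 2 (0.87). The drug responses differed for AOX1 (-1.98 ± 0.51, 0.0092, ended at -1.19 without E5 vehicle library 2), GSTA4 (0.61 ± 0.18, 0.017, ended at 0.24 on rlog values and 0.32 on log2(FPKM + 1)) and AKR1B1 (0.29 ± 0.10, 0.04). The AKR1B1 call ended when any one of 7 libraries was left out, at 0.23 to 0.31: control vehicle 1 or 3, control FOLFIRINOX 3, E5 vehicle 2 or 3, or E5 FOLFIRINOX 1 or 2.

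ALDH3A1 belongs to the battery of genes known to be induced through the aryl hydrocarbon receptor, and of 9 other genes of that receptor's pathway 6 were tested. In E5 cells 5 were higher and none lower under either treatment, where 22.1% (vehicle) and 26.7% (FOLFIRINOX) of all genes were higher. ALDH3A1 was higher without overlap in vehicle libraries and overlapped under FOLFIRINOX. AHR, the receptor, was higher by 3.59 ± 0.12 under vehicle (adjusted p = 1.4e-13) and 2.51 ± 0.11 under FOLFIRINOX (5.2e-12), CYP1A1 by 2.65 ± 0.14 (5.1e-11) and 1.06 ± 0.11 (6.5e-07) and NQO1 by 1.68 ± 0.056 (2e-13) and 2.56 ± 0.058 (2.4e-15, edgeR). In control cells under the drug 4 rose and 1 fell, where 32.6% of all genes rose and 32.7% fell. CYP1B1 (1.47 ± 0.098, 1.5e-09), CYP1A1 (1.46 ± 0.15, 1.9e-07) and AHR (1.30 ± 0.12, 4.7e-08, edgeR) were among those that rose. NQO1 was the 1 that fell (-1.16), and ALDH3A1 was lower as well.

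In E5 cells under the drug 2 of the 6 rose and 2 fell, where 25% of all genes rose and 27.3% fell. CYP1B1 rose (0.62 ± 0.086, adjusted p = 1.4e-05), NQO1 fell (-0.27 ± 0.055, 5e-04), and ARNT, the partner of AHR, fell (-0.25 ± 0.076, 0.011, edgeR), a call that ended without E5 vehicle library 3 (-0.21) or E5 FOLFIRINOX library 3 (-0.17). TIPARP, a target of the receptor that restrains it, rose by 0.20 ± 0.061 (0.011), which ended without E5 FOLFIRINOX library 1 (0.17). Of the 6, the response was lower in E5 than in control cells for 4 and higher for 1, where 25.7% of all genes differed. It was lower for CYP1A1 (-1.59 ± 0.18, 1.2e-05), AHR (-1.07 ± 0.15, 9.7e-05), TIPARP (-0.90 ± 0.088, 2.6e-06, edgeR) and CYP1B1 (-0.85), and higher for NQO1 (0.88). The difference for ALDH3A1, on the side of NQO1 at 0.42 ± 0.59, was smaller than its error.

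For the 3 members with the widest range of group means, ALDH1A3 (5.63 on the log2 CPM scale), ALDH1A1 (5.31) and ALDH3A1 (2.37), the tested protein-coding genes with the most alike pattern over the 12 libraries were looked up by Pearson's r of log2 CPM. They were RGS4 (0.9984), KRT15 (0.9972) and KIF5C (0.9954) for ALDH1A3, AIF1L (0.9963), MMP10 (0.9949) and MCAM (0.9914) for ALDH1A1, and BSN (0.9662), SEC22C (0.9611) and WIPF2 (0.9565) for ALDH3A1. The libraries of a group share a sample, so these values describe 4 groups more than 12 points.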

How the data were processed

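KP4 RNA sequencing libraries, 12 columns of 4 GEO samples, were analysed, and no column was left out. Reads were trimmed with Trimmomatic and aligned with STAR 2.5.1b to GRCh38, per the submitters' processing notes. The authors deposited stranded read counts per gene, FPKM values and rlog values on a log2 scale, the latter pair with programs that are not given in the sources used. The 4 classes of reads not assigned to a gene did not enter library sizes. Unmapped reads were 1.469 to 1.705%, multimapping 10.79 to 12.84%, without a feature 6.631 to 8.523% and ambiguous 2.863 to 3.205%.

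Counts were fitted in edgeR 4.0.16 (R 4.3.3) by the quasi-likelihood method with 4 group means over all 12 libraries, TMM scaling and filterByExpr. P-values were adjusted over 15636 genes by the Benjamini-Hochberg method at 0.05. SE is the log2 fold change divided by the square root of F. The procedure was tested on simulated data. The biological coefficient of variation was 7.37%. Alternatives were total-count scaling, no filter, the column number as a block, only the groups compared, DESeq2 1.42.0, limma 3.58.1 on log2(FPKM + 1), log2(FPKM + 0.1) and rlog values, and leaving out each library. For a group with 0 reads the floor was 3 counts.

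The members and the gene lists were chosen with earlier results of these data known. Named genes were all members, all other tested ALDH genes, and per list and comparison up to 3 genes past the test with the largest change among those of at least 1 CPM in a group mean. Some named genes are also given in further comparisons. CRABP2 and CYP26A1 were named outside this rule. For the 3 members of widest range, the 3 most alike genes were named. Some genes of the marker and pathway lists are not reported here.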

Additional observations from a re-analysis of the deposited data

Results flagged for a closer look

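The response to FOLFIRINOX differed between E5 and control cells in 16 of the genes named in the report, where 25.7% of all genes differed. Some genes were named because they passed this same test, so nothing is read from the count. The calls of ALDH5A1, RARB, DHRS9, SGPL1, AKR1B1, AOX1 and GSTA4 ended under some of the alternatives. The test was that of the difference itself (edgeR, adjusted p under 0.05). The 10 listed members were given no test, so none of them could be among the 16. Values are the log2 response of E5 minus that of control cells. Of the other ALDH genes these were ALDH5A1 (0.81) and ALDH18A1 (0.42). Of the retinoid genes they were RDH10 (-0.65), DHRS3 (0.45), DHRS9 (-1.83), RARB (-2.79) and RARG (0.64), and outside the naming rule RDH13 (0.48) and RXRA (0.41) also passed. Among genes that form or remove aldehydes, SGPL1 (0.45), AKR1B1 (0.29), AOX1 (-1.98) and GSTA4 (0.61) differed, and in the aryl hydrocarbon receptor pathway AHR (-1.07), TIPARP (-0.90), CYP1A1 (-1.59), CYP1B1 (-0.85) and NQO1 (0.88). Groups of 3 libraries were not searched for single libraries far from the others.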

How the results depend on the processing

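For the 9 tested members, 886 values under alternatives were compared with the main ones: 764 moved by less than 1 SD, 122 by more, 96 of these among the 135 on FPKM or rlog values and 26 among the 751 on counts. On rlog values ALDH1A1 in E5 against control cells was -2.61 under vehicle and -2.71 under FOLFIRINOX, and ALDH1A3 was 2.75 under both. Beside those in the report, signs changed for the ALDH2 difference of responses without E5 FOLFIRINOX library 3 (-0.27) or E5 vehicle library 3 (-0.10), and in E5 cells under the drug for ALDH7A1 with total-count scaling (0.05) or without E5 FOLFIRINOX library 2 (0.03) or 3 (0.01), ALDH3B1 without E5 vehicle library 3 (-0.13) and ALDH1B1 without E5 FOLFIRINOX library 1 (-0.01). The ALDH9A1 difference of -0.01 ran to 0.03. The median of all genes moved by over 0.1 in control cells under the drug with total-count scaling (0.14) and on log2(FPKM + 1) and log2(FPKM + 0.1) (0.14 and 0.19), and on the latter in E5 against control cells under FOLFIRINOX (-0.13) and in the difference of the responses (-0.12, and -0.10 on log2(FPKM + 1)).

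Of the other ALDH genes, 3 were called in E5 cells under the drug on log2(FPKM + 0.1), against 6. On both FPKM scales 1 was called in E5 against control cells under FOLFIRINOX, against 4, and 1 in the difference, against 2. ALDH1L2 in E5 against control cells under FOLFIRINOX turned to 0.10 and 0.39 on these scales, and the DHRS9 difference to 0.13 on log2(FPKM + 1). The share of calls that were higher moved from 49.9% in control cells under the drug to 60.9% with total-count scaling and 66.9% on FPKM. In E5 cells it moved from 47.8% to 58.4% on log2(FPKM + 0.1), under FOLFIRINOX in E5 against control cells from 49.1% to 35.4% and 35.9% on FPKM, and in the difference from 51.8% to 39.5% with total-count scaling, 63.4% without the filter and 26.5% and 27.4% on FPKM.

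With 1 library left out, 9415 to 10429 genes were called in control cells under the drug, 7280 to 8688 in E5 cells, 5949 to 7470 and 7683 to 8636 between the lines under vehicle and FOLFIRINOX, and 3216 to 4049 in the difference, against 10203, 8174, 6934, 8488 and 4013. No pairing by column number was seen, though 3 libraries per group are too few to exclude it. The deviations of same-numbered libraries had correlations of -0.188 to 0.148 over 18 pairs, and 4 of 12 libraries correlated best with their own number. With the column number as a replicate block 9988, 7905, 6635, 8145 and 3538 genes were called. The block ended the calls of AKR1C3 in control cells and of the AKR1B1 difference. Counts of ALDH1A2, ALDH2, ALDH3A1 and ALDH3B1 are low, which limits what can be said of them.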

Other observations

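The nearest tested protein-coding genes on either side of ALDH1A1, ALDH1A3, ALDH3A2 and ALDH3B1 were looked up after the members' values had been seen. LRRK1, 2.7 kb from ALDH1A3, was higher in E5 cells by 1.01 ± 0.11 under vehicle (edgeR adjusted p = 5.1e-07) and 1.45 ± 0.11 under FOLFIRINOX (6.5e-09), against 4.04 and 4.56 for ALDH1A3. ASB7, 226 kb away on the other side, did not pass (0.11, 0.29, and 0.13, 0.16). Beside ALDH1A1, ANXA1 at 71.4 kb was lower in E5 cells under vehicle (-0.32 ± 0.091, 0.0088) and higher under FOLFIRINOX (0.42 ± 0.091, 9e-04), while ALDH1A1 was lower under both. ZFAND5, 535.4 kb away on the other side, was higher in E5 cells under both (0.71 ± 0.053, 6.8e-09, and 0.31 ± 0.052, 7.6e-05). SLC47A1, 69.1 kb from ALDH3A2, was higher by 0.40 ± 0.069 (0.00017) and 0.55 ± 0.07 (4e-06). UNC93B1, 3.6 kb from ALDH3B1, was higher in E5 cells (0.77 ± 0.16, 0.00074, and 0.96 ± 0.17, 0.00011), and NDUFS8, 1.3 kb away on the other side, by 0.24 ± 0.092 under FOLFIRINOX (0.037) but not past the test under vehicle (0.18, 0.13).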
